A study of Mus musculus with 7 samples.

Results

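Oog1, Oog4, Omt2a, Omt2b, Rfpl4, Zar1, Zar1l and Oas1d, 8 genes whose transcripts are known from the mouse oocyte, were followed across single morula-stage embryos. They were chosen by symbol, and all 8 were found among the 26586 gene symbols of the count table. The 7 embryos were of the C57BL/6 background, were flushed from the oviduct or uterus at day 3 post coitum, and came from matings in which both parents were L13a-/+ (heterozygous for a mutation of the ribosomal protein gene Rpl13a). No embryo received a treatment, and the labels put all 7 in a single group, with no genotype, sex, litter or batch for any of them. The values therefore describe the spread between embryos, and no groups were compared. Total counts ran from 139619 in replicate 6 to 33123742 in replicate 4, a 237-fold range, 1749 to 12064 genes had a count, and the ribosomal RNA genes Rn45s, Rnr1 and Rnr2 together with Lars2 took 4.56 to 24.1% of the counts.

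The growing oocyte stores messenger RNA that the embryo uses before its own genome takes over, and most of that store is degraded during the first cleavages. Zar1 is an RNA-binding zinc finger protein that helps to store and translate maternal RNA, and embryos of mothers without it arrest early. Zar1l is its paralog. Rfpl4 is a RING finger protein of oocytes and early embryos that was reported to bind cyclin B1 and a proteasome subunit. Oog1 and Oog4 belong to the leucine-rich repeat proteins of the Pramel family, many of which are made in oocytes and early embryos. Omt2a and Omt2b are a neighbouring pair of oocyte maturation genes of little-known function. Oas1d is an oocyte member of the oligoadenylate synthetase family, best known for antiviral enzymes.

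The 4 genes of the Oog and Omt2 pairs are shown first, because the bases before their starts show how alike each pair is there. The 250 bases before the RefSeq start of each gene, from build GRCm38.p6, are given 5′ to 3′ on the gene's own strand. Capitals mark matches on either strand to CANNTG (the E-box letters, bound by factors such as FIGLA), TAATTG (letters bound by the oocyte homeobox factor NOBOX) or TATAAA.
Oog1 (chr12:87602415-87602664, plus strand): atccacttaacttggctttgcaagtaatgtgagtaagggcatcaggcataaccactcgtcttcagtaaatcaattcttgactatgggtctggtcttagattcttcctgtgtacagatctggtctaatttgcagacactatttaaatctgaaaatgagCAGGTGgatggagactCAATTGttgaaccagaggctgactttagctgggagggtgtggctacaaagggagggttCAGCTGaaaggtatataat
Oog4 (chr4:143450325-143450574, minus strand): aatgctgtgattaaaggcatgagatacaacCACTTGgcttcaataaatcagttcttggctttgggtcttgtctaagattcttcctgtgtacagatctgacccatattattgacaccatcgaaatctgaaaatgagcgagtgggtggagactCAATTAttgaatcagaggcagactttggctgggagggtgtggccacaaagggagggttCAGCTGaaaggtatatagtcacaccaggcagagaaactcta
Omt2a (chr9:78314049-78314298, minus strand): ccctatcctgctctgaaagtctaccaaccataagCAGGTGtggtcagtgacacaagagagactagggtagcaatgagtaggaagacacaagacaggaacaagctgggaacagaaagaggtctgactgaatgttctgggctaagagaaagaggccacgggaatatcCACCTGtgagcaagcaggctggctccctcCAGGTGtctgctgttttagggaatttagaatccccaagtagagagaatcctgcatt
Omt2b (chr9:78327780-78328029, plus strand): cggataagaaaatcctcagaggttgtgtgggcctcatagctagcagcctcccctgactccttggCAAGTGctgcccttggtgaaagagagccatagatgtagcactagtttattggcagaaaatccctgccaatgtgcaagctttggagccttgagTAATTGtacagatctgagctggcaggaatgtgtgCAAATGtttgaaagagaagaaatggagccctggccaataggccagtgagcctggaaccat
Oog1 and Oog4 lie on different chromosomes, yet their windows were 83.8% identical over 228 aligned bases. Omt2a and Omt2b lie next to each other, and their windows were 46.6% identical over 236 aligned bases, within the range of the other 19 pairs of members (39.1 to 50.6%). The windows of the paralogs Zar1 and Zar1l, not printed here, were 43.6% identical over 234 aligned bases. Of the 8 genes, 7 had a window in the RefSeq table, and Oas1d was the exception. CANNTG was found in all 7 windows and in 66.2% of 32851 windows of the same length. TAATTG was found in the windows of Oog4, Omt2b and Zar1l and in 7.17% of all windows, and TATAAA in that of Rfpl4 and in 12.4%. No annotated GENCODE M21 exon of these 4 genes overlaps its window, and the windows of the Omt2 pair lie within introns of longer transcripts. The 3 motifs do not contain one another, and a match is a description of letters, not a site of binding.

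Sequence sharing between transcripts limits some of the counts. Of the distinct 50-base stretches of the GENCODE M21 transcripts of Oog1, 89.0% also occurred in transcripts of another gene, 85.8% in Gm2042 and 58.6% in Gm10436. The Oog1 level is therefore uncertain, since reads from these copies could be dropped or split. Of the Omt2a stretches 37.0% were shared with Omt2b, and of the Omt2b stretches 35.2% with Omt2a. Zar1 shared 28.4%, mostly with Gm42668, and Oas1d 6.24%, mostly with Oas1c and Oas1e. Oog4 shared 0.707%, and Rfpl4 and Zar1l shared none.

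The summed level of the 8 genes was highest in replicate 7 and close to 0 in replicate 4. It was 5684, 8885, 4959, 2.05, 589, 3216 and 11642 CPM (counts scaled to a library total of 1e6) in replicates 1 to 7. The sum is mostly that of the Omt2 pair: Omt2b made up 31.3, 55.9, 62.6, 76.5, 98.0, 81.1 and 57.7% of it and Omt2a 42.9, 35.2, 26.4, 0, 0.676, 15.8 and 27.5%. In replicate 6 Oog1, Oog4, Zar1 and Zar1l were at 0, and in replicate 3 Oog4, Zar1, Zar1l and Oas1d were. The sum equals 1.16% of all counts in replicate 7 and 0.000205% in replicate 4, the most deeply sequenced library. Of the 8 genes, 7, 7, 4, 2, 4, 4 and 7 had a count in replicates 1 to 7. Over all 26586 genes the numbers were 5121, 9383, 3486, 12064, 3388, 1749 and 8953. With every library thinned to 139619 counts, 7, 7, 4, 1, 3, 4 and 7 of the 8 genes had a count. Over all genes the thinned numbers were 3968, 6939, 2858, 8533, 2334, 1749 and 6669. Replicate 4, the deepest library, thus again had the fewest of the 8 genes, with the most genes in all. CPM is a share of the library total. A lower CPM in a whole embryo can thus mean fewer cells with a transcript, less of it per cell or more of other RNA. These cannot be told apart.

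**Figure D1:**
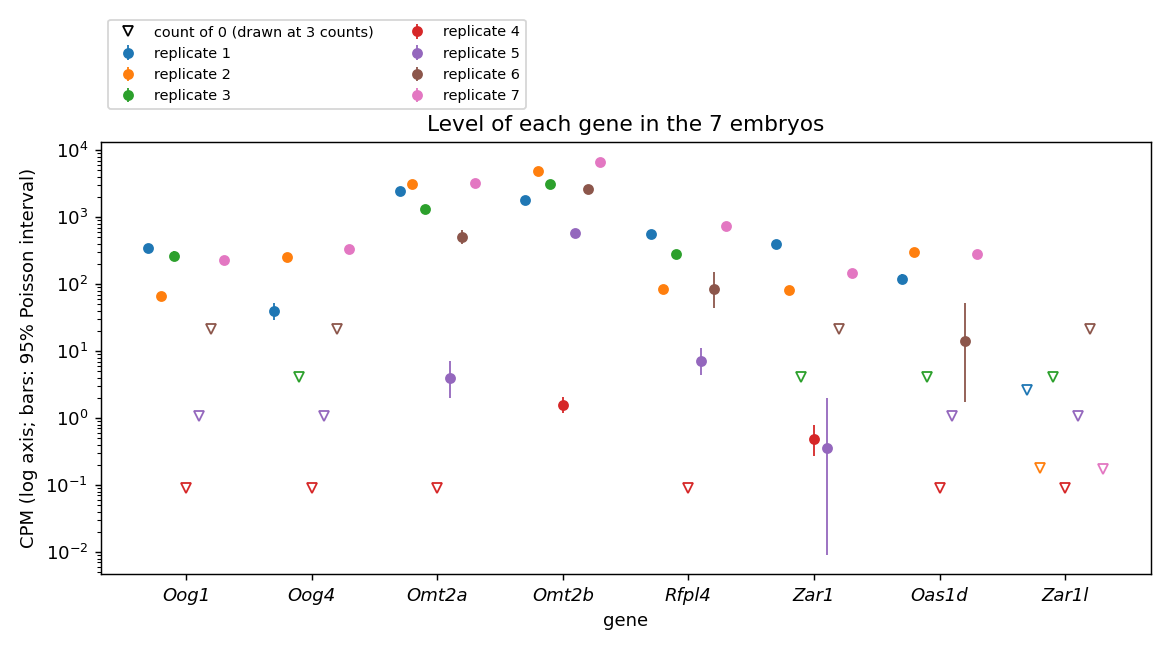
CPM of each gene (x axis) in each of the 7 embryos on a log axis. Filled points are embryos with a count, bars are 95% Poisson intervals, and open triangles stand at 3 counts for embryos with a count of 0; Omt2a and Omt2b reach the highest levels, replicate 4 (red) stands at or near the bottom in every counted gene, and Zar1l has a count in no embryo.

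Omt2b (chromosome 9, 78327589 to 78329620, plus strand, ENSMUSG00000038750.12, up to 4 exons per transcript, GRCm38) was the most abundant member and the only one counted in all 7 embryos. It stood at 1781, 4971, 3103, 1.57, 577.3, 2607 and 6719 CPM in replicates 1 to 7. Replicates 2 and 7 were high, replicate 5 was lower than the other embryos with high levels, and replicate 4 stood apart below all others. The highest embryo was 4280-fold above replicate 4, whose 52 counts gave a 95% Poisson interval of 1.17 to 2.06 CPM. It was the 5th and 6th most counted gene of replicates 2 and 7 and the 10089th of replicate 4. Intervals cover counting error only, because the libraries carry no molecular identifiers.

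Omt2a (chromosome 9, 78311972 to 78314796, minus strand, ENSMUSG00000066463.13, up to 4 exons) stood at 2437, 3125, 1310.4, 0, 3.98, 509 and 3198 CPM. Replicates 1, 2 and 7 were high, replicates 3 and 6 intermediate, and replicates 4 and 5 at or near 0. Its count of 0 in replicate 4 allows up to 0.0906 CPM (3 counts), so replicate 7 was at least 35312-fold higher.

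The balance within the Omt2 pair differed between embryos by more than the counting error of reads. With a single library per embryo, no molecular identifiers and stretches shared by the pair, other error in this share was not measured. Omt2a made up 57.8% (95% Clopper-Pearson interval 56.4 to 59.2) of the reads of the pair in replicate 1, 38.6% (38.3 to 38.9) in replicate 2, 29.7% (28.1 to 31.3) in replicate 3 and 32.2% (32.0 to 32.5) in replicate 7. In replicate 6 the share was 16.3% (12.97 to 20.1), and in replicate 5 it was 0.685% (0.342 to 1.22), with 11 Omt2a reads against 1596 of Omt2b. Replicate 5 thus held Omt2b at 577.3 CPM with hardly any Omt2a. In replicate 4, with 0 of 52 reads, the interval reached 6.85%.

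**Figure D2:**
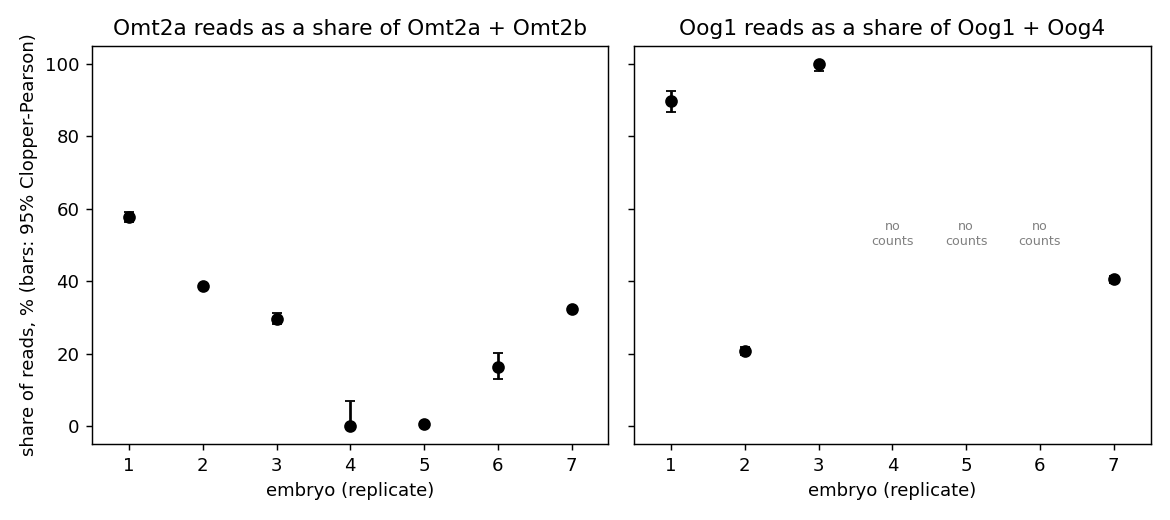
Share of reads in percent (y axis) taken by Omt2a within Omt2a and Omt2b (left) and by Oog1 within Oog1 and Oog4 (right) for each embryo (x axis), with 95% Clopper-Pearson intervals. The Omt2a share runs from 0% in replicate 4 and 0.685% in replicate 5 to 57.8% in replicate 1, and the Oog1 share from 20.8% in replicate 2 to 100% in replicate 3.

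The genes around the Omt2 pair were highest in different embryos. Dppa5a, a KH-domain gene of pluripotent cells whose start lies 40.6 kb from that of Omt2b, had 56949 counts in replicate 4, 4257 in replicate 2, 250, 10 and 0 in replicates 7, 5 and 1, and 0 in replicates 3 and 6. The glutathione transferase genes Gsta1 and Gsta2 and their relatives Gm3776 and Gm10639, on either side of the pair, had 92, 117, 97 and 51 counts in replicate 4, which is 1.54 to 3.53 CPM, and had none in any other embryo. These levels lie below the 4.13 and 21.5 CPM that a count of 0 allows in replicates 3 and 6. That of Gm10639 (1.54 CPM) also lies below the 2.62 CPM allowed in replicate 1, and Gsta1 (2.78 CPM) and Gm3776 (2.93 CPM) lie just above it. Ooep, a subunit of the subcortical maternal complex, stood at 79.6, 98.8, 8.27, 20.1, 0, 0 and 154 CPM in replicates 1 to 7, and was highest in replicates 7 and 2, as Omt2a and Omt2b were. The helicase gene Ddx43 stood at 6.12, 24.7, 86.8, 0.242, 0, 0 and 9.52 CPM. In replicate 4 these 7 neighbours ran from 0.242 CPM for Ddx43 to 1719 CPM for Dppa5a, with Omt2b at 1.57 CPM and Omt2a at 0.

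**Figure D3:**
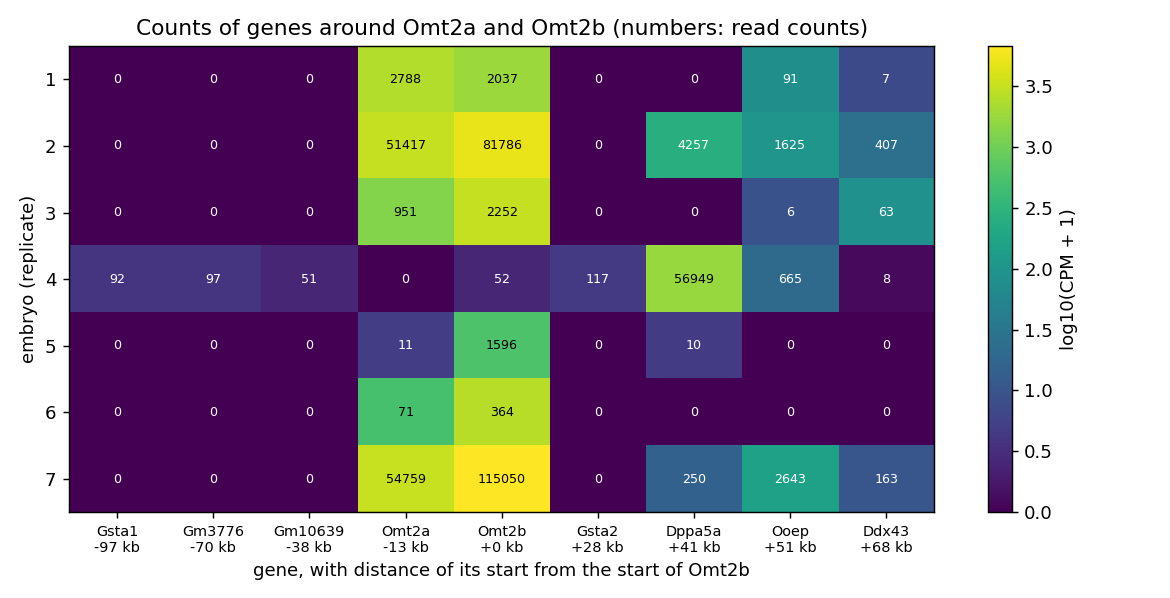
Counts (numbers) and log10(CPM + 1) (colour) of the genes within 100 kb of Omt2b, in genome order along the x axis with the distance of each start from that of Omt2b, for each embryo (y axis). In replicate 4 Omt2a has 0 counts and Omt2b 52, while Dppa5a has 56949 counts in replicate 4.

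Rfpl4 (chromosome 7, 5109787 to 5116950, minus strand, ENSMUSG00000035191.15, up to 3 exons) stood at 559, 84.8, 278, 0, 7.23, 85.9 and 729 CPM in replicates 1 to 7. Replicates 7 and 1 were highest, and the intervals of replicates 2 and 6 overlapped (80.5 to 89.4 and 44.4 to 150.1 CPM, 95% Poisson). The highest embryo was at least 8050.3-fold above replicate 4. Its relative Rfpl4b had a count in replicates 2, 3 and 7 alone, at 51.1, 59.3 and 14.2 CPM.

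Zar1 (chromosome 5, 72576806 to 72581254, minus strand, ENSMUSG00000063935.3, up to 4 exons) stood at 399, 81.1, 0, 0.483, 0.362, 0 and 149 CPM. Only replicates 1, 2 and 7 held an appreciable level, and replicate 3, high for Oog1, Omt2b and Rfpl4, had no Zar1 read, which allows up to 4.13 CPM. Replicate 1 was 825-fold above replicate 4, which had 16 reads. Zar1l (chromosome 5, 150507055 to 150518164, minus strand, ENSMUSG00000056586.8, up to 4 exons) had 0 counts in all 7 libraries. A count of 0 allows up to 0.0906 CPM in replicate 4 and up to 21.5 CPM in replicate 6, so absence was not shown. Zar1l overlaps the pseudogene Gm15933 on the same strand, and none of its 50-base stretches occurred in another gene.

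Oog1 (chromosome 12, 87602688 to 87608850, plus strand, ENSMUSG00000096576.2, up to 4 exons) stood at 349.7, 66.2, 267, 0, 0, 0 and 229 CPM in replicates 1 to 7. Oog4 (chromosome 4, 143437164 to 143450324, minus strand, ENSMUSG00000047799.15, up to 5 exons) stood at 39.3, 252, 0, 0, 0, 0 and 335 CPM. Both had no read in replicates 4, 5 and 6, but they differed in replicate 3, which held 194 Oog1 reads and none of Oog4. Oog1 made up 89.9% (86.7 to 92.5), 20.8% (19.7 to 21.9), 100% (98.1 to 100) and 40.6% (39.6 to 41.6) of the reads of this pair in replicates 1, 2, 3 and 7, with 95% Clopper-Pearson intervals. Gm2042, which shares most of the Oog1 stretches, stood at 81.3, 48.6, 1116, 0.0604, 0, 0 and 186 CPM, and Gm10436 at 1159, 526.4, 2170.2, 0, 366, 21.5 and 1211 CPM. Because of that sharing, part of the Oog1 pattern may belong to these copies, and the split was not tested.

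The wider Oog and Pramel family was highest in different embryos. Of 26 listed relatives, 24 were analysed and 21 had a count, with 10, 15, 12, 16, 5, 3 and 15 of them counted in replicates 1 to 7. Over all genes the numbers were 5121, 9383, 3486, 12064, 3388, 1749 and 8953. The part of depth in the family numbers was not tested. Oog3 was the most abundant, at 3472, 1123, 3432, 0, 0, 817 and 1749 CPM, and Oog2 stood at 227, 7.78, 930.1, 0, 0, 50.1 and 50.5 CPM. The 4 genes named Oog thus had no read in replicates 4 and 5. C87414 stood at 1957 CPM and BC080695 at 1291 CPM in replicate 3, against 0.0302 and 0 CPM in replicate 4. Gm13084, C87499, C87977 and AA792892 were at most 3.83 CPM in replicate 4 and had no read in replicate 5, and reached 109, 66.9, 525 and 288 CPM elsewhere. Pramel5 was counted in replicate 4 alone, at 459 CPM, and Pramel4 in replicates 4 and 5, at 140.5 and 77.4 CPM. Pramel6 and Pramel7, known as regulators of the pluripotent inner cell mass, stood at 706 and 295 CPM in replicate 4, while Pramel7 was also at 449, 362 and 168 CPM in replicates 2, 5 and 7. E330014E10Rik was highest in replicate 5, at 369 CPM, and Pramef17, Pramel1, AU018829 and D5Ertd577e stayed at or below 15.2 CPM in every embryo. Gm13078, B020031M17Rik, Pramef8 and Pramef12 reached 73.3, 87.3, 165 and 104.8 CPM in replicate 7, and Pramef8 reached 196 CPM in replicate 3. Gm13083, Pramef6 and Pramel3 had no count in any embryo.

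Oas1d (chromosome 5, 120914536 to 120921652, plus strand, ENSMUSG00000032623.9, 6 exons) stood at 119.8, 305, 0, 0, 0, 14.3 and 283 CPM in replicates 1 to 7. The value of replicate 6 rests on 2 reads (95% Poisson interval 1.73 to 51.7 CPM), and replicate 2 was at least 3368-fold above replicate 4. Of the 11 other genes of the family, 7 had a count. Oas1e (684, 190.5 and 31.4 CPM) and Oas1f (141, 81.1 and 0.467 CPM) were counted in replicates 1, 2 and 7 alone, and Oas1c (17.8 and 87.5 CPM) and Oas1h (45.6 and 32.4 CPM) in replicates 2 and 7 alone. Oas3, at 16.6 CPM or less, was counted in replicates 1, 2 and 7, and Oasl2, at 8.08 CPM or less, in replicates 2, 4 and 7. Oas1a, the classical interferon-induced enzyme, separated from Oas1d by 7.02 kb, had 302 counts in replicate 4 (9.12 CPM) and none elsewhere. Oas1b, Oas1g, Oas2 and Oasl1 had no count in any embryo. The oocyte gene and its classical neighbour were therefore counted in no common embryo, although 9.12 CPM lies below the 21.5 CPM that a count of 0 allows in replicate 6.

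Per kilobase of merged exons, the mean over the 7 embryos was 1826 CPM for Omt2b, 1032 for Omt2a, 145 for Rfpl4, 53.1 for Oog1, 51.1 for Oas1d, 45.2 for Oog4 and 26.0 for Zar1, and 0 for Zar1l. The order was the same with the longest transcript as the length. On the log2 scale (TMM-scaled log2 CPM, prior count 2), levels averaged 9.82 ± 3.95 for Omt2b, 7.63 ± 5.42 for Omt2a, 5.71 ± 4.06 for Rfpl4, 3.46 ± 5.21 for Oog1, 2.94 ± 4.998 for Oas1d, 2.52 ± 4.75 for Zar1 and 1.96 ± 5.13 for Oog4 (SD, n = 7). Each gap between neighbours in this order was smaller than either SD.

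The 7 counted genes each had a larger SD than the median gene. The median SD of the 7 was 4.998, against 3.63 over the 11810 genes whose mean CPM was at least 1, a filter that the 7 passed and Zar1l did not. Genes within 2-fold of the mean CPM of a member had median SDs from 3.24 for those near Omt2b to 4.61 for those near Rfpl4. Rfpl4 (4.06) lay below the median of genes near its level, and the other 6 lay above theirs. Without replicate 4 the SD of Omt2b was 1.27, that of Rfpl4 2.37 and that of Omt2a 3.65, and 5 of 7 genes exceeded the median of all genes. The 7 genes were carried above the filter by the embryos in which they were high, so these values are a description.

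**Figure D4:**
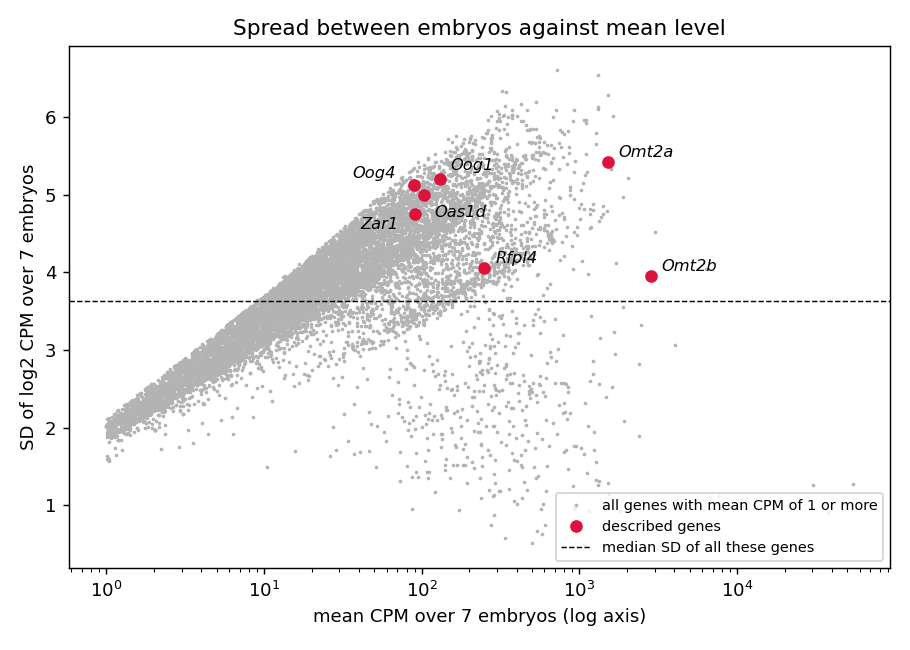
SD of log2 CPM over the 7 embryos (y axis) against mean CPM (x axis, log) for the 11810 genes whose mean CPM was at least 1 (grey) and for the 7 counted members (red). The dashed line is the median SD of all these genes, 3.63, and the members lie above it, at 3.95 to 5.42.

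The embryos took different places for different members. By CPM, replicate 7 was highest for Omt2a, Omt2b, Rfpl4 and Oog4, replicate 1 for Oog1 and Zar1, and replicate 2 for Oas1d. With TMM scaling replicate 2 (11.93 log2 CPM) stood above replicate 7 (11.69) for Omt2a. Replicate 4 was at or below all others in 6 of the 7 genes, the exception being Zar1. Replicate 3 was above the median embryo for Oog1, Omt2b and Rfpl4, and at 0 for Oog4, Zar1 and Oas1d. Replicates 4, 5 and 6 were above the median embryo for none. The root mean square difference of log2 profiles, each centred on its mean over the 7 embryos, was smallest for Omt2b and Rfpl4 (1.52) and Oog4 and Zar1 (1.64), and largest for Omt2b and Zar1 (4.46), with a median of 3.69 over 21 pairs.

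Outside the list, the genes of most similar profile were named by the same distance among 7716 genes whose mean CPM was at least 10. A count of 0 stands at -2.07 in every library, so embryos at 0 for both genes shorten it. Zbed3, a subunit of the subcortical maternal complex, was nearest to Rfpl4 (0.55), followed by Spry4 (0.89) and Siah2 (1.29). Siah2, a ubiquitin ligase, was nearest to Omt2b (1.12), followed by Tcl1b1 (1.15) and Gm97 (1.51). Spry4 (1.17), Klf17 (1.39) and Gm97 (1.44) were nearest to Omt2a. Oog1 was nearest to Ppm1h (0.44), Ahdc1 (0.57) and Pak1 (0.58), Oog4 to Tcstv3 (0.31), Mmp2 (0.38) and Prr23a (0.45), Zar1 to Dclre1a (0.55), Bnc1 (0.71) and Gnrh1 (0.72), and Oas1d to Afap1l2 (0.52), Mfsd2a (0.85) and Creb3l4 (0.91). The mean profile of the 7 genes was nearest to Fam125b (1.27), Efcab6, Eef2k, Kcnh1, Nhsl1, Zbtb33, Gm8801, Gcm2, Dpysl3 and Ica1 (1.52).

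Genes of maternal RNA binding and clearance, of oocyte transcription and growth, and of the subcortical maternal complex were listed too. The 12 maternal RNA-binding and clearance genes summed to 5162, 1388, 5062, 202, 8.68, 2707 and 6392 CPM in replicates 1 to 7. Among them Btg4, an adaptor of deadenylation, was at 949, 211, 1519.8, 0, 0, 723 and 2545 CPM, and the deadenylase Cnot6l at 1103, 303, 1016, 7.88, 0, 1275 and 1158 CPM. Ybx2, an RNA-binding protein of the same stores as Zar1, was at 97.9, 64.9, 44.1, 12.3, 0, 630.3 and 239 CPM, and so was highest in replicate 6, where Zar1 had no read. The 10 oocyte transcription and growth factors summed to 2158, 820.0, 2996, 52.7, 25.7, 379.6 and 3049 CPM, led by Bmp15 (1102 mean CPM) and Gdf9 (134), growth factors of the oocyte. Nobox had 10.5, 5.51 and 121 CPM in replicates 1, 3 and 7 and no read elsewhere, and Figla was counted in replicate 4 alone, at 3.92 CPM. This Figla level lies below the 4.13 and 21.5 CPM that a count of 0 allows in replicates 3 and 6. For the subcortical maternal complex, 5 of 6 listed genes were analysed and summed to 10916, 3766, 7285, 53.3, 107, 2342 and 22056 CPM, led by Zbed3 (6363 mean CPM) and Tle6 (157).

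Markers of the embryo's own lineages had their highest sum where the 8 genes had their lowest. All 18 were counted in replicate 4, and 2, 11, 2, 2, 0 and 9 in replicates 1, 2, 3, 5, 6 and 7. Over all genes, 12064 were counted in replicate 4, and 5121, 9383, 3486, 3388, 1749 and 8953 in replicates 1, 2, 3, 5, 6 and 7. The markers were not thinned, and the part of depth in these numbers was not tested. The lineage marker sums were 147, 569, 19.3, 5269, 288, 0 and 552 CPM in replicates 1 to 7. Replicates 2 and 7, with the highest sums of the 8 genes, stood next below replicate 4, so the other embryos did not follow an opposite order. Krt8 and Krt18 were counted in replicates 2 and 4, Pou5f1 in replicates 2, 4 and 7, and Cdx2 and Nanog in replicate 4 alone. These genes were thus all at 0 in replicates 1, 3, 5 and 6. Replicate 5 was the median embryo for the lineage sum, at 288 CPM, all but 7.60 CPM of it from Tfap2c (279.99 CPM).

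Markers of other cells that could be carried along had their highest sums in other embryos than the 8 genes, apart from sperm markers. The 14 oviduct and uterine epithelium markers summed to 1153, 1865, 0, 63.1, 1.81, 6289 and 249 CPM in replicates 1 to 7, led by Lcn2 (377 mean CPM) and Sprr2f (290.2). Of the 14, 4, 10, 0, 5, 1, 4 and 7 were counted, against 5121, 9383, 3486, 12064, 3388, 1749 and 8953 over all genes. Replicate 3 had 4959 CPM of the 8 genes and no read of any of these 14 markers, and replicate 6, highest in the markers, had 3216 CPM. Of 13 cumulus and granulosa markers at most 2 were counted in an embryo, with a highest sum of 15.7 CPM in replicate 2. That sum came from Inha (198 counts) and Cyp11a1 (61 counts). Of the 13 markers, 9 had no count in any embryo, among them Amh, Foxl2 and Cyp19a1. Sperm markers reached at most 22.0 CPM, in replicate 7, all from Prm2, while Prm1 was counted in replicate 4 alone, at 0.453 CPM. Blood and immune markers reached 129 CPM in replicate 6, all from Csf1r, while Hba-a2 was at most 5.53 CPM, in replicate 2. Stroma and muscle markers reached 4348 CPM in replicate 6, of which Dcn made up 4240.1 CPM. In replicate 3 a single stroma and muscle marker was counted, Myh11 at 565 CPM, and this sum was second only to that of replicate 6. The part of maternal tissue in the levels of the 7 embryos was not tested.

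**Figure D5:**
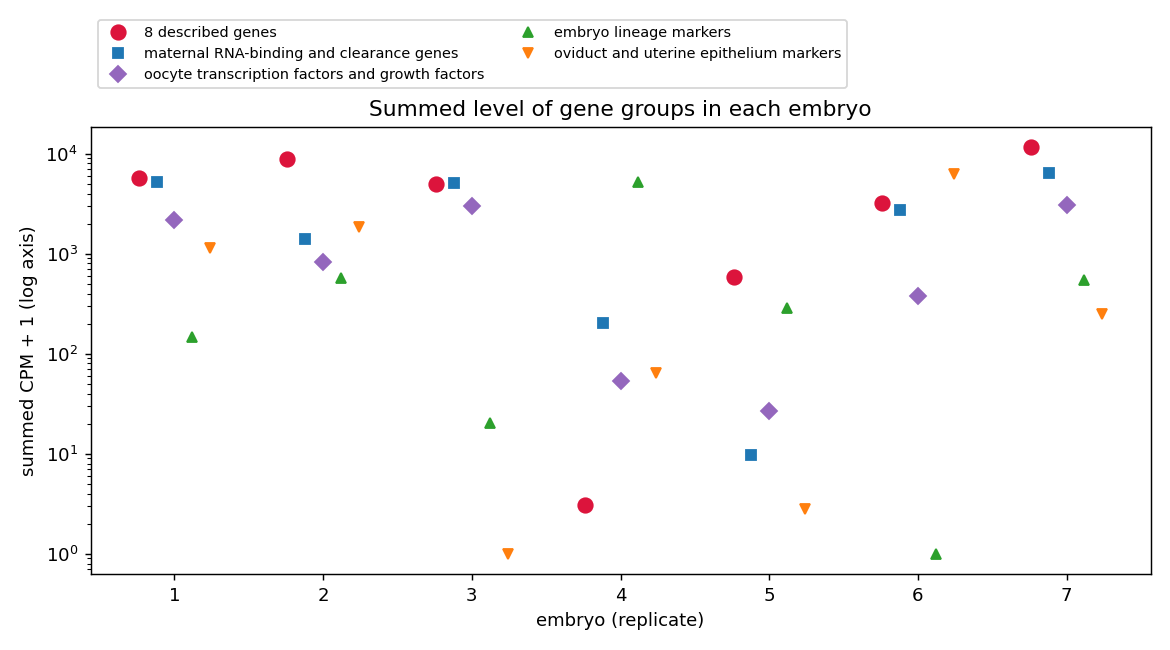
Summed CPM plus 1 (y axis, log) of the 8 genes and of 4 fixed gene groups in each embryo (x axis). The 8 genes (red) stand at 2.05 CPM in replicate 4, where the embryo lineage markers reach 5269 CPM.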

How the data were processed

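Polyadenylated RNA of each embryo was copied to cDNA by oligo-dT priming (SMART-Seq v4) and turned into Nextera XT libraries, per the labels' protocols. The authors deposited raw read counts per gene symbol and a table of normalized log2 values; HISAT2 2.0.5, featureCounts 1.5.0-p2 (Subread), limma and build GRCm38 are named in the submitters' processing notes. No source used here gives the settings, the annotation, the use of strand or the treatment of reads with several matches. The deposited log2 values were matched within 4.97e-14 by log2 CPM followed by quantile normalization.

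CPM are counts over the library total. Log2 CPM used TMM factors and a prior count of 2 (edgeR 4.0.16, R 4.3.3). As the labels give 1 group, no groups were compared by a test. Extreme embryos were marked by Dixon's criterion. Spread and distance calculations were checked on simulated libraries of equal total, with Poisson counting error and well-counted genes alone. That check does not cover the unequal totals and many counts of 0 of the real libraries. Intervals are at 95%, and a count of 0 was read as up to 3 counts. Positions, lengths and shared 50-base stretches came from GENCODE M21 of GRCm38, in which 22468 of 26586 symbols matched. Promoter windows came from RefSeq (GRCm38.p6) and were aligned globally in pairs. The members and gene lists were chosen with earlier results of these data known. Named genes were the 8 members, their families, the 2 of highest mean CPM of each other list, genes within 100 kb of a member (in part described), the 3 nearest profiles per member and 10 for their mean, and Krt8, Cdx2, Nanog and Pou5f1; Ybx2, Nobox, Figla, Psmb1, Tfap2c, Amh, Foxl2 and Cyp19a1 were chosen after their values were seen. Nothing in the labels says that the embryos came from separate litters.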

Additional observations from a re-analysis of the deposited data

Results flagged for a closer look

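Of 15 sets of 7 values examined (log2 CPM and CPM of each counted gene, and their summed CPM), 2 had an extreme embryo whose gap to the next was larger than 0.568 of the range, and chance flags about 1 in 20 sets of independent, normally distributed values. These sets hold ties at 0 and the same genes on both scales, and the rate for such values was not measured. Omt2b in replicate 4, at 1.25 log2 CPM, stood below the other 6 embryos, which lay between 9.44 and 12.76. Zar1 in replicate 1, at 399 CPM, stood above the next embryo, replicate 7, at 149 CPM.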

How the results depend on the processing

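Across 7 counted members, all 91 alternative values of the mean log2 CPM stayed within 1 SD of the value reported. This bound is wide, since the SDs between embryos were 3.95 to 5.42. Leaving out an embryo cannot move a mean that far, and thinning moved that of Oog4 from 1.96 to 5.41 within it. Of the alternative SDs, 82 of 91 stayed within the sampling error of an SD. The other 9 were lower, 6 of them after thinning and 3 without replicate 4. The median SD of the members was 6.01 with a prior count of 0.5 (all genes 4.49), 2.11 after thinning to the lowest total (1.19), where a count of 0 is no longer far below a low count, and 4.39 without replicates 4 and 6 (3.52), an alternative added after seeing the data. It ran from 4.67 to 5.14 when each embryo was left out in turn. The number of members with an SD above the median gene was 5 without replicate 4 and 6 with a prior count of 0.5, checks also added after seeing the data. Without Rn45s, Rnr1, Rnr2 and Lars2 in the total, the summed CPM of the members was 6677, 10835, 5196, 776, 3733 and 12942 in replicates 1, 2, 3, 5, 6 and 7. After thinning, 1 member was counted in replicate 4. In the deposited log2 table, 2 members rather than 4 were highest in replicate 7, and 0 of the 10 genes nearest to the mean profile were the same; the cause was not tested. With a prior count of 0.5, 7 of these 10 were shared, and among genes averaging at least 1 CPM 9 were. No paired analysis was possible because the labels give 1 group. Depth limits replicate 6 most, where a count of 0 allows 21.5 CPM.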

Other observations

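In the deposited log2 table, values of a gene near its detection limit follow the library as well as the count. Zar1 stood there at 3.41 in replicate 5 from 1 read, at -1.93 in replicate 4 from 16 reads and at 3.88 in replicate 2 from 1335 reads. Omt2b stood at -1.69 in replicate 4 from 52 reads, and Omt2a at 4.69 in replicate 5 from 11 reads.

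The cyclin, proteasome and ubiquitin genes listed for the reported binding partners of Rfpl4 were highest in other embryos than Rfpl4. Ccnb1, the cyclin of entry into mitosis, was at 3.50, 772, 101, 381, 3342, 602 and 307 CPM in replicates 1 to 7, and so was highest in replicate 5, where Rfpl4 stood at 7.23 CPM. Psmb1, a proteasome core subunit, was at 580.5, 563, 0, 787, 346, 0 and 58.4 CPM, and the ubiquitin-conjugating enzyme gene Ube2a at 0, 177, 1656, 290.2, 19.5, 0 and 252 CPM. The 6 listed genes of this group summed to between 584 CPM in replicate 1 and 3722 CPM in replicate 5.

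Within 100 kb of Zar1, the magnesium transporter relative Nipal1 had 2409 counts (72.7 CPM) in replicate 4, 1 in replicate 5 and 0 elsewhere. Nfxl1 stood at 335, 28.1, 1.38, 3.74, 0, 0 and 15.1 CPM in replicates 1 to 7. Within 100 kb of Rfpl4, the zinc finger gene Fiz1 stood at 1332, 339.9, 0, 25.8, 0, 0 and 223 CPM. The splicing factor gene U2af2 stood at 6.99, 25.2, 0, 23.8, 0, 7.16 and 2.45 CPM, the 7.16 CPM of replicate 6 from 1 read.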
